A study of Mus musculus with 9 samples.

Results

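The 40 mouse genes described here encode the cell's defence against oxidants: the NRF2 regulator and its targets, the enzymes that make and use glutathione, the peroxiredoxins, superoxide dismutases and glutathione peroxidases, the selenoproteins P and W, and ferritin. They were taken by name, from what their products do, out of 40879 gene symbols in each library, and fall into 11 roles. The choice was made with earlier results of these data known. Shares of the set beside those of all genes are therefore description only. Of the 40, 38 had enough reads to be tested; Gpx7 had no read in any library and Slc7a11 had too few. They were measured in engineered skeletal muscle made from C2C12, an established line of mouse myoblasts of wild-type genotype, embedded in matrix derived from muscle tissue. Every construct was grown for 2 days in medium with 10% fetal bovine serum and then differentiated for 10 days in medium with 10% equine serum. Normal constructs received no irradiation. The irradiated group was given X-rays once, at 20 Gy, which the study used to induce senescence. The cocultured group was itself left without irradiation and was kept beside an irradiated construct in the same dish, to expose it to what that construct secretes. Each group had 3 libraries. The time between irradiation and harvest is not given in the sources used here.

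The constructs come from 1 cell line, so the libraries are separate constructs and not separate animals. The design text says that constructs of 1 condition were cultured in pairs in a dish, and it states 2 irradiated and 2 normal constructs where the labels list 3 libraries each. Which libraries shared a dish is not given, so the p-values below measure only the spread between these libraries, which may be in part technical.

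NRF2, encoded by Nfe2l2, is a transcription factor that KEAP1 holds in the cytoplasm and sends for degradation; oxidants modify KEAP1, NRF2 reaches the nucleus, and genes with antioxidant response elements are transcribed. Glutathione is made from cysteine, glutamate and glycine; peroxidases and transferases spend it and glutathione reductase renews it with NADPH. Selenoproteins carry selenocysteine, which is read from a UGA codon, and include the glutathione peroxidases GPX1, GPX3 and GPX4 and the thioredoxin reductases. Skeletal muscle makes oxidants in its mitochondria and during contraction, and senescent cells are known for raised oxidant levels and iron-storing ferritin.

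Reads were counted per gene from the 3′ ends of transcripts, so a value counts reads, PCR copies included, and is not divided by length; values below are normalised CPM, counts scaled to a common library size, and are compared only between libraries for the same gene. Libraries held 4840993 to 6607557 counts in normal, 6485655 to 8290468 in irradiated and 7506605 to 8035763 in cocultured constructs. Irradiated 2 and irradiated 3 detected the fewest genes. Genes of middling abundance were taken as those with 20 to 50 CPM on average over the normal and cocultured libraries. Of these, 20.5% and 17.1% had no read in irradiated 2 and irradiated 3, against 0.0675% to 5.23% in the other 7 libraries. That choice can itself raise the shares in irradiated libraries, since genes lower after irradiation count among them. In normal 3 and irradiated 1 the mature muscle genes Acta1, Ckm, Mylpf and Tnnt3 took 4.30% and 3.33% of counts, against 0.308% to 0.813% elsewhere, and mitochondrial genes took 29.7% and 21.6%, against 5.76% to 13.4%. A single non-coding gene, Gm26917, took 9.47% to 27.4% of counts in normal, 4.76% to 12.01% in irradiated and 3.38% to 3.91% in cocultured libraries. All 8 muscle differentiation markers were detected in each group. The myoblast marker Myf5 stood at 0 in all irradiated libraries against 1.92 to 20.0 CPM in normal ones. Pax7 stood at 0 to 9.22 against 10.7 to 12.7 CPM. The part of missed reads in these low values was not tested. Cdh15, at 0 to 72.5 against 9.58 to 73.2 CPM, and Vim, at 645 to 1680 against 983 to 1419 CPM, overlapped. Myf5 was the 1 of 4 myoblast markers at 0 throughout the irradiated group. Their summed levels were 689 to 1762 CPM in irradiated and 1006 to 1525 CPM in normal libraries. The 4 fibroblast markers, which myoblasts can also express, summed to 6243 to 11081 CPM in normal and 5002 to 7823 CPM in irradiated libraries. In cocultured libraries the sum was 6292 to 10226 CPM, and most of each sum was Dcn. Dpt stood at 0 in normal and at 9.97 to 37.1 CPM in irradiated libraries, while Pdgfra, Col1a1 and Dcn overlapped. Of other cell types, erythroid markers summed to at most 89.4 CPM, with Alas2 at 0 throughout and Hba-a1 at up to 56.6 CPM. Macrophage markers summed to at most 37.2 CPM, with Aif1 at 0 throughout. Csf1r stood at 4.09 to 37.2 CPM in normal, 0 to 15.8 CPM in irradiated and 0 in cocultured libraries. Adipocyte markers summed to at most 98.0 CPM, with Plin1 at 0 throughout and Fabp4 at up to 85.6 CPM. The adipocyte sum was 4.11 to 98.0 CPM in normal and 0 to 1.92 CPM in irradiated libraries. Endothelial markers summed to at most 36.0 CPM and neuronal or glial markers to at most 40.5 CPM. The part of these differences in the results below was not tested beyond the alternatives named. In bulk RNA, fewer cells of a kind and less RNA per cell cannot be told apart.

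The first question was which of these genes differ between irradiated and normal constructs. The clearest differences were in selenoprotein P, extracellular superoxide dismutase and a mu-class glutathione transferase: Selenop averaged 179.8 CPM in irradiated and 27.6 CPM in normal constructs, Gstm1 174 against 54.6 CPM, and Sod3 169 against 660.1 CPM. None of the 38 tested genes passed edgeR's quasi-likelihood test at an adjusted p of 0.05, where 7 of all 11980 genes did, or 0.0584%. Before adjustment, 9 of the 38 lay under 0.05, where 10.3% of all genes did. DESeq2 called 5 of the 38 against 3.89% of the genes it tested, and limma voom called 1 against 0.209%. Of those 9 genes 5 were higher and 4 lower, where 1.59% and 8.7% of all genes were. The split moved with the scaling. Library totals left 7 genes of the set under 0.05, beside 10.2% of all genes, with 6 higher and Sod3 alone lower. Pgd, Prdx5 and Gsto1 were then no longer among them, and Gsta4 had joined. The 3 irradiated values lay wholly outside the 3 normal values in 12 genes, 7 above and 5 below, against 15.7% of all genes, 3.94% above and 11.8% below. All 9 genes under 0.05 were among these 12, and 7.42% of all genes met both marks, 1.27% above and 6.15% below.

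Over the 38 genes the median log2 fold change of irradiated over normal was -0.06, with 18 positive, beside a median of -0.21 over all tested genes, 41.8% of them positive; 28 of the 38 differed by less than 1 on the log2 scale. Scaling by library totals in place of TMM factors moved the median of all genes by 0.35 in this comparison. It moved by 0.55 for cocultured over normal and by -0.18 for irradiated over cocultured. In irradiated over normal that median was -0.96 in limma voom, -0.64 without irradiated 1 and -0.55 with a block for replicate number. The median of the set was then 0.00935, 0.18 and -0.08, and the cause was not tested. Leaving out irradiated 1 raised the number of genes called in the whole table from 7 to 147, and Selenop was then the 1 called gene of the set. Without both irradiated 2 and irradiated 3, a check chosen after seeing the data, 6 of 39 tested genes of the set lay under 0.05 before adjustment (2 higher and 4 lower), beside 7.46% of all genes. Without both normal 3 and irradiated 1, 8 of 39 did (5 higher and 3 lower), beside 16.8% of all genes. No gene of the set was called in either.

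**Figure D1:**
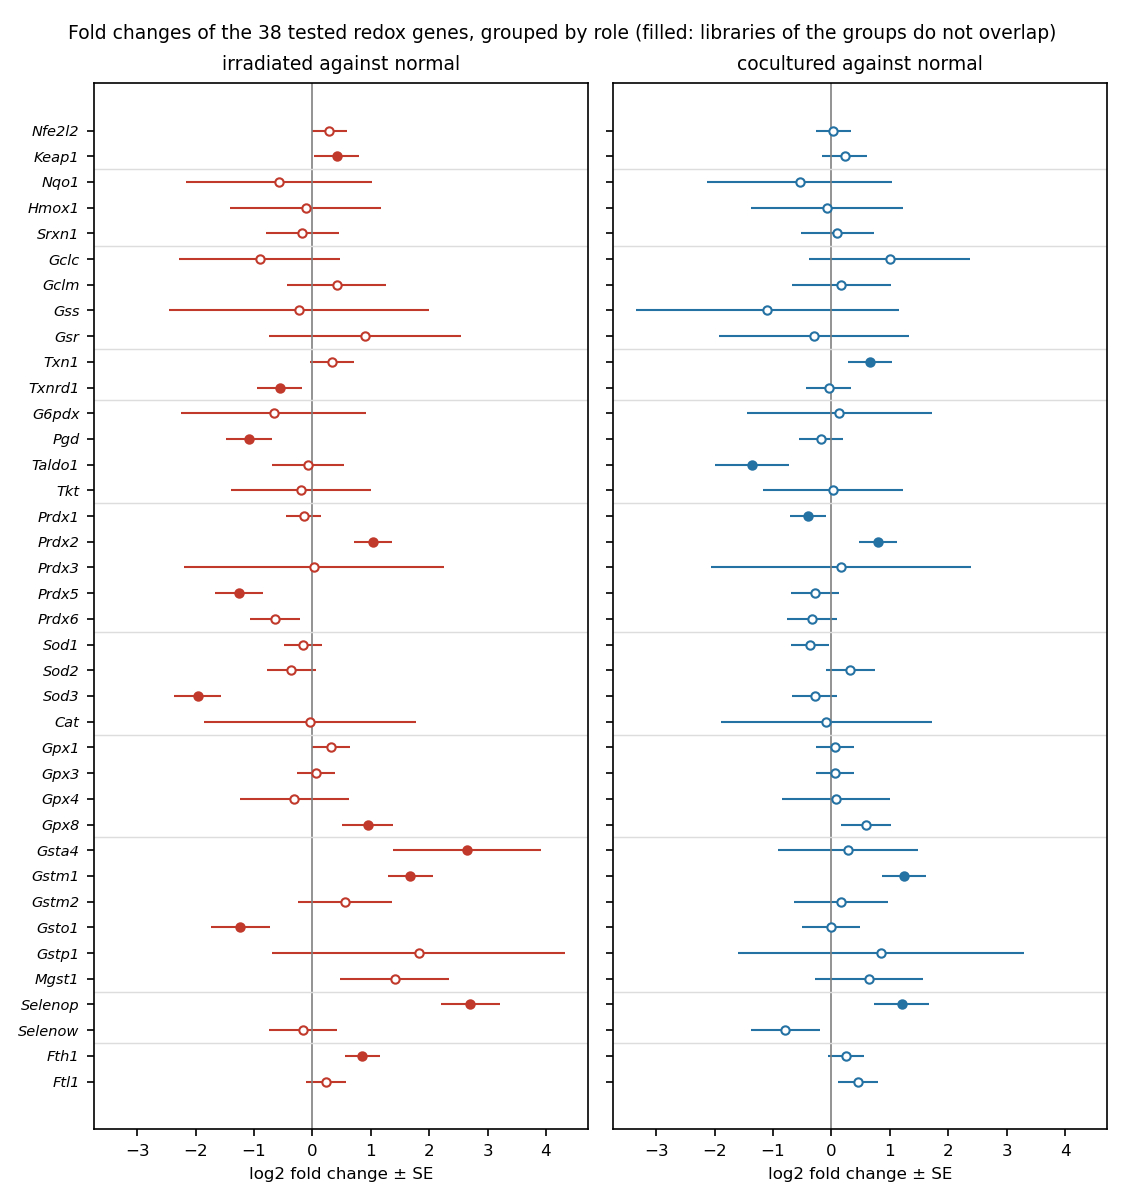
Log2 fold change of each of the 38 tested genes for irradiated (left) and cocultured (right) over normal, ordered by role, with bars of 1 standard error; filled points mark genes whose 3 libraries did not overlap those of normal. Selenop at 2.71 and Gstm1 at 1.67 lie furthest to the right among the filled points with short bars, and Sod3 at -1.96 furthest to the left.

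Selenoprotein P is a secreted protein that carries several selenocysteines and delivers selenium to other tissues. Selenop stood at 16.6, 35.7 and 30.4 CPM in normal 1 to 3, at 138, 189.9 and 212 CPM in irradiated 1 to 3, and at 36.3, 90.5 and 63.4 CPM in cocultured 1 to 3. All 3 irradiated libraries lay above all normal and cocultured ones, and all cocultured ones lay above all normal ones. Means were 27.6 ± 9.83 CPM in normal, 179.8 ± 38.2 CPM in irradiated and 63.4 ± 27.1 CPM in cocultured constructs (SD, n = 3 each). Irradiated over normal came to a log2 fold change of 2.71 (SE 0.50) with an adjusted p of 0.0892 in edgeR's quasi-likelihood test. DESeq2 gave an adjusted p of 4.64e-05, and over 21 alternatives the adjusted p ran from that value to 0.439, under 0.05 in 4 of them, while the log2 fold change stayed between 2.32 and 3.21. Selenoprotein W is a small selenoprotein abundant in muscle. Selenow stood at 60.2, 61.1 and 244 CPM in normal, 173, 100.2 and 54.3 CPM in irradiated and 72.6, 57.7 and 80.5 CPM in cocultured libraries. Normal 3 and irradiated 1, the libraries rich in mature muscle genes, held its highest values, and the groups overlapped. Its log2 fold change of irradiated over normal was -0.16 (SE 0.59, adjusted p of 1 in edgeR), and it came to 0.84 without normal 3 and to 0.36 when scaled by library totals.

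The superoxide dismutases turn superoxide into hydrogen peroxide: SOD1 in the cytosol, SOD2 in mitochondria and SOD3 outside the cell, bound to matrix. Sod3 stood at 778, 369 and 833 CPM in normal, 165, 169 and 174 CPM in irradiated and 310.2, 570.4 and 741 CPM in cocultured libraries. The irradiated libraries lay close together and below all 6 others, while normal and cocultured libraries overlapped. The means were 660.1 ± 254, 169 ± 4.32 and 541 ± 217 CPM (SD, n = 3 each), and irradiated over normal came to a log2 fold change of -1.96 (SE 0.40), with an adjusted p of 0.114 in edgeR's quasi-likelihood test. DESeq2 called it, at an adjusted p of 0.00025, and so did edgeR with no filter on low counts, at 0.000349; the other 19 alternatives did not, and the highest adjusted p among them was 0.497. Without irradiated 1, the adjusted p was 0.0747 in edgeR and the log2 fold change -1.94.

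Sod2 stood at 253, 176 and 254 CPM in normal, 110.3, 114 and 309 CPM in irradiated and 263, 234 and 358 CPM in cocultured libraries. Its irradiated libraries straddled the normal ones, and the log2 fold change was -0.36 (SE 0.42, adjusted p of 1 in edgeR), or 0.16 when scaled by library totals. Sod1 ranged from 252 to 517 CPM over the 9 libraries, with normal 3 highest, and its groups overlapped. Catalase, which breaks down hydrogen peroxide in peroxisomes, was uneven: Cat stood at 33.3, 8.86 and 18.1 CPM in normal, 53.2, 0 and 5.28 CPM in irradiated and 40.9, 1.45 and 14.2 CPM in cocultured libraries. Within each group its libraries differed by more than the groups did.

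Glutathione transferases join glutathione to reactive compounds. Gstm1, of the mu class, stood at 42.1, 42.7 and 79.1 CPM in normal, 196, 164 and 162 CPM in irradiated and 136, 142 and 109 CPM in cocultured libraries. Every irradiated library lay above every cocultured one, and every cocultured one above every normal one. Irradiated over normal came to a log2 fold change of 1.67 (SE 0.38) with an adjusted p of 0.149 in edgeR's quasi-likelihood test; over 21 alternatives the adjusted p ran from 0.00385 (DESeq2, the 1 alternative that called it) to 0.680. Without normal 3, its highest normal library, the log2 fold change was 2.04. Mu-class genes are near copies of each other and how shared reads were handled is not stated, so the level of Gstm1 is uncertain to that degree: Gstm3, Gstm4 and Gstm6 had no read in any library, while Gstm2 stood at 14.2 to 64.7 CPM, Gstm5 at 6.96 to 95.8 CPM and Gstm7 at 0 to 28.0 CPM, each with overlapping groups and a higher mean in irradiated than in normal constructs.

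Gsto1, of the omega class, which reduces glutathione-mixed disulfides and dehydroascorbate, stood at 128, 89.8 and 78.3 CPM in normal, 19.8, 53.8 and 52.1 CPM in irradiated and 75.4, 128 and 91.8 CPM in cocultured libraries. The irradiated libraries lay below all 6 others. Its log2 fold change of irradiated over normal was -1.23 (SE 0.50, adjusted p of 0.483 in edgeR), with irradiated 1 furthest from the normal libraries: with irradiated 1 as the only irradiated library the value was -2.32, and without it -0.90. Gsta4, whose enzyme clears the lipid peroxidation product 4-hydroxynonenal, stood at 16.4, 4.32 and 10.1 CPM in normal, 46.8, 98.7 and 49.0 CPM in irradiated and 27.9, 9.31 and 0.339 CPM in cocultured libraries. All irradiated libraries lay above all others, although cocultured libraries held 260, 90 and 3 counts. In the edgeR fit used for the values above, its unadjusted p was 0.0562 against normal and 0.0798 against cocultured constructs. Against normal it was under 0.05 before adjustment in some alternatives, among them DESeq2 and edgeR with library totals or with no filter on low counts. The microsomal Mgst1 reached 184 CPM in irradiated 3 and lay at 5.75 to 72.1 CPM in the other 8 libraries. Gstp1 stood at 38.1 CPM in irradiated 3, at 0 in normal 3 and irradiated 2, and at 3.62 to 9.51 CPM in the rest; its copies Gstp2 and Gstp3 had no read.

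**Figure D2:**
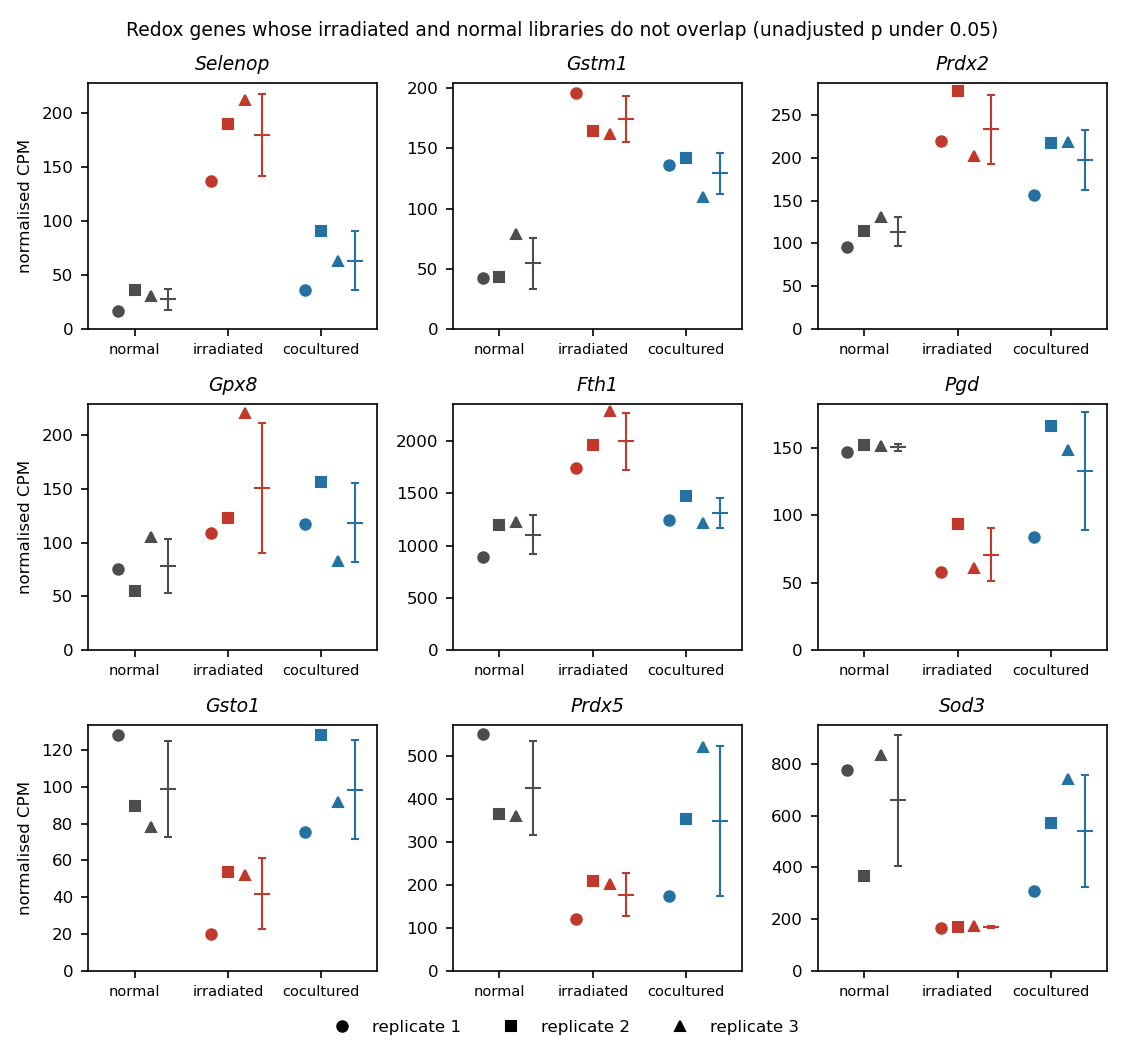
Normalised CPM in each of the 9 libraries, 1 panel a gene, for the 9 genes whose irradiated libraries lay wholly outside the normal ones with an unadjusted p under 0.05; each symbol is a library and the side bar is the group's mean ± SD. Fth1, Gpx8, Gstm1, Prdx2 and Selenop are higher in irradiated libraries and Gsto1, Pgd, Prdx5 and Sod3 lower.

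Glutathione peroxidases reduce peroxides with glutathione. Gpx8, an enzyme of the endoplasmic reticulum that has no selenocysteine, stood at 75.8, 54.8 and 105 CPM in normal, 109, 123 and 221 CPM in irradiated and 117, 156 and 82.6 CPM in cocultured libraries. Irradiated libraries lay above normal ones by a narrow margin, 109 against 105 CPM at the closest. The log2 fold change of 0.94 (SE 0.43, adjusted p of 0.483 in edgeR) came to 0.57 without irradiated 3. The 3 selenium-containing members did not separate. Gpx1, the cytosolic enzyme, stood at 223, 303 and 245 CPM in normal, 279.6, 370.2 and 307 CPM in irradiated and 229, 207 and 367 CPM in cocultured libraries, a log2 fold change of 0.31 (SE 0.32, adjusted p of 1 in edgeR) for irradiated over normal. Gpx3, the secreted enzyme, stood at 1071, 1078 and 599 CPM in normal, 842, 1119.9 and 917 CPM in irradiated and 902, 1091 and 871 CPM in cocultured libraries and the groups overlapped. Its log2 fold change was 0.07 (SE 0.32, adjusted p of 1 in edgeR) and turned to -0.16 without normal 3. Gpx4, which reduces lipid hydroperoxides in membranes and blocks ferroptosis, stood at 25.1, 42.0 and 16.7 CPM in normal, 30.0, 22.1 and 15.6 CPM in irradiated and 36.0, 35.3 and 16.8 CPM in cocultured libraries. Its 61 to 341 counts a library gave a log2 fold change of -0.31 with an SE of 0.93 (adjusted p of 1 in edgeR), so a 2-fold difference either way was not detectable at this depth and spread.

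Peroxiredoxins reduce peroxides through a reactive cysteine. Prdx2, a cytosolic form, stood at 96.3, 115 and 131 CPM in normal, 219, 279 and 202 CPM in irradiated and 157, 217 and 219 CPM in cocultured libraries. All 6 libraries that were irradiated or cocultured lay above all 3 normal ones. Irradiated over normal came to 1.04 on the log2 scale (SE 0.32, adjusted p of 0.381 in edgeR's quasi-likelihood test; DESeq2 called it at 0.0470, and the alternatives ran up to 0.742). Prdx5, found in mitochondria, peroxisomes and cytosol, stood at 552, 367 and 361 CPM in normal, 121, 210.1 and 203 CPM in irradiated and 174, 354 and 523 CPM in cocultured libraries. Irradiated libraries lay below normal ones, and cocultured libraries spanned both. The log2 fold change was -1.26 (SE 0.41, adjusted p of 0.424 in edgeR), between -1.82 and -0.81 over the alternatives. Prdx1, the other main cytosolic form, overlapped between irradiated (277, 379 and 283 CPM) and normal libraries (314, 427 and 301 CPM). Prdx6 was even among irradiated libraries, at 122 to 134 CPM, and ran from 125 to 295 CPM in normal ones. Prdx3, the mitochondrial form, stayed at or under 20.1 CPM everywhere and at 0 in normal 3.

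The pentose phosphate enzymes G6PDX and PGD make NADPH, and transaldolase and transketolase run the branch that follows. Pgd stood at 147, 152 and 152 CPM in normal, 58.1, 93.3 and 60.7 CPM in irradiated and 83.5, 166 and 149 CPM in cocultured libraries. The 3 normal libraries were nearly equal and lay above all irradiated ones, and cocultured libraries spread across both ranges. Its log2 fold change of irradiated over normal was -1.09 (SE 0.39, adjusted p of 0.483 in edgeR), and it was -0.62 when scaled by library totals. G6pdx, the entry enzyme, stayed between 3.62 and 20.8 CPM with overlapping groups. Taldo1 stood at 131, 161 and 105 CPM in normal, 81.1, 265 and 33.1 CPM in irradiated and 40.7, 40.02 and 73.9 CPM in cocultured libraries. Irradiated 2 was the highest of all 9 libraries and irradiated 3 the lowest, so the irradiated group spanned both others. Tkt ran from 3.41 to 39.7 CPM with overlapping groups.

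Ferritin stores iron in a shell of heavy and light chains; the heavy chain oxidises ferrous iron. Fth1, the heavy chain, stood at 887, 1195 and 1226 CPM in normal, 1744, 1964 and 2287 CPM in irradiated and 1247, 1479 and 1212 CPM in cocultured libraries. Irradiated libraries lay above all others, with means of 1103 ± 187, 1999 ± 273 and 1313 ± 145 CPM (SD, n = 3 each). The log2 fold change of irradiated over normal was 0.86 (SE 0.31), with an adjusted p of 0.483 in edgeR's quasi-likelihood test. DESeq2 and limma voom called it, at adjusted p of 0.00133 and 0.0367, while the other alternatives gave up to 0.825. Ftl1, the light chain, stood at 247, 293 and 158 CPM in normal, 195, 297 and 327 CPM in irradiated and 272, 329 and 357 CPM in cocultured libraries, with overlapping groups. Ferritin genes have many processed copies in the genome that can share reads with them.

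Of NRF2 and its inhibitor, Keap1 separated between irradiated and normal libraries by a narrow margin, 93.7 against 92.6 CPM at the closest. Nfe2l2 did not separate, and neither gene lay under 0.05 before adjustment in edgeR. Nfe2l2 stood at 308, 255 and 279 CPM in normal, 317, 276 and 436 CPM in irradiated and 312, 305 and 243 CPM in cocultured libraries, a log2 fold change of 0.29 (SE 0.30, adjusted p of 1 in edgeR) for irradiated over normal. It was among the steadiest genes of the set, with its highest library 1.80 times its lowest. Keap1 stood at 92.6, 62.3 and 91.1 CPM in normal, 129, 106 and 93.7 CPM in irradiated and 115, 78.7 and 93.8 CPM in cocultured libraries. Irradiated libraries lay just above normal ones, with a log2 fold change of 0.42 (SE 0.39, adjusted p of 1 in edgeR).

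Of the classic target enzymes, Nqo1, a quinone reductase, stood at 18.7, 15.9 and 25.4 CPM in normal, 36.6, 0.47 and 3.40 CPM in irradiated and 9.75, 9.72 and 21.7 CPM in cocultured libraries. The highest and the 2 lowest of the 9 values were all irradiated. Its log2 fold change of irradiated over normal was -0.57 with an SE of 1.59 (adjusted p of 1 in edgeR), and it was 0.87 with irradiated 1 as the only irradiated library. Hmox1, which breaks down heme and is a common readout of oxidant stress, stood at 17.3, 10.0 and 24.9 CPM in normal, 8.73, 18.9 and 20.5 CPM in irradiated and 17.1, 24.5 and 7.91 CPM in cocultured libraries. Group means were 17.4, 16.1 and 16.5 CPM, and the log2 fold change of irradiated over normal was -0.11 (SE 1.30, adjusted p of 1 in edgeR), or 0.50 when scaled by library totals. Sulfiredoxin, which repairs oxidised peroxiredoxins, overlapped as well: Srxn1 ran from 30.6 to 87.7 CPM in normal, 20.4 to 69.9 CPM in irradiated and 42.0 to 75.5 CPM in cocultured libraries.

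The first and limiting step of glutathione synthesis is glutamate-cysteine ligase, with a catalytic subunit (Gclc) and a modifier (Gclm). Gclc stood at 23.4, 30.0 and 20.8 CPM in normal, 28.5, 0 and 11.3 CPM in irradiated and 29.0, 50.1 and 69.3 CPM in cocultured libraries. Irradiated 2, where 20.5% of the genes of middling abundance chosen above had no read, had no Gclc read. The log2 fold change of irradiated over normal was -0.90 (SE 1.38, adjusted p of 1 in edgeR), or 0.20 with irradiated 1 as the only irradiated library. Gclm ran from 10.9 to 82.8 CPM, with both extremes among cocultured libraries. Glutathione synthetase (Gss) and reductase (Gsr) reached at most 26.0 and 33.3 CPM, with overlapping groups. Slc7a11, the cystine importer, had 102 counts in cocultured 3 and at most 13 in any other library, none of them in irradiated libraries.

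Thioredoxin and its selenium-containing reductase pass electrons from NADPH to peroxiredoxins. Txn1 stood at 245, 255 and 144 CPM in normal, 162, 370.3 and 284 CPM in irradiated and 325, 426 and 268 CPM in cocultured libraries. The cocultured libraries lay above the normal ones, and normal 3 and irradiated 1 held the lowest values. Txnrd1 stood at 117, 104 and 151 CPM in normal, 101, 54.0 and 97.3 CPM in irradiated and 104, 136 and 121 CPM in cocultured libraries. Irradiated libraries lay below normal ones by a small gap, with a log2 fold change of -0.56 (SE 0.39, adjusted p of 0.840 in edgeR).

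To set these values beside the DNA that NRF2 is known to bind, the RefSeq windows from 250 bases before to 50 bases after each gene start were searched on both strands. These windows are on GRCm38.p6, not on the GRCm39 build named for the read counts, and 34 of the 40 genes had one. The core of the antioxidant response element, TGACNNNGC, was found in 9 of the 34 genes (26.5%): G6pdx, Gclm, Mgst1, Nfe2l2, Pgd, Prdx1, Sod1, Srxn1 and Txnrd1. Over all 27025 genes with a window the share was 14.0%. The AP-1 site TGAGTCA was found in 3 of the 34 (8.82%), Gstp1, Prdx1 and Srxn1, against 5.95% of all genes; the 2 motifs overlapped in 149 of 32851 windows. Of the 9 genes with the core, Pgd was among those whose irradiated libraries lay apart from the normal ones at an unadjusted p under 0.05, below them. Of these windows, 5 sequences upstream of starts are shown to give the letters that were searched: the regulator and a pair of genes with the core, then Selenop and Gstm1, the genes with the smallest p among those higher in irradiated constructs, in whose windows neither motif was found. Each is the 250 bases before the start, 5′ to 3′ on the gene's strand, with motif matches on either strand in capitals.
Nfe2l2, chr2:75704664-75704913, minus strand: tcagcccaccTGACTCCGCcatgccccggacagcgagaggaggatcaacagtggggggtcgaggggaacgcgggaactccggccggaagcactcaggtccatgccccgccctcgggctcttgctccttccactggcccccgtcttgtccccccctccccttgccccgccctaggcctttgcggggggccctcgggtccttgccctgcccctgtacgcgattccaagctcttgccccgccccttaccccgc
Prdx1, chr4:116685349-116685598, plus strand: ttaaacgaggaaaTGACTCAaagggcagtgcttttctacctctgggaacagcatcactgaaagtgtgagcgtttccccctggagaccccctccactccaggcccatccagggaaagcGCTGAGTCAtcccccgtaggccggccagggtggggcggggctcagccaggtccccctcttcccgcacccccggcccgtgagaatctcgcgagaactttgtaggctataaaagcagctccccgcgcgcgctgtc
Txnrd1, 1 of 3 windows, chr10:82858956-82859205, plus strand: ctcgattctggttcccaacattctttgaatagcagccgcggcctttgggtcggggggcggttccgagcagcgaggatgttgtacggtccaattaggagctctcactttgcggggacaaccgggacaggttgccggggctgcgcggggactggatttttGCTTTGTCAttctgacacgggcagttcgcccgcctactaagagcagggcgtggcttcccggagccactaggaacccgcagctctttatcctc
Selenop, 1 of 3 windows, chr15:3270517-3270766, plus strand: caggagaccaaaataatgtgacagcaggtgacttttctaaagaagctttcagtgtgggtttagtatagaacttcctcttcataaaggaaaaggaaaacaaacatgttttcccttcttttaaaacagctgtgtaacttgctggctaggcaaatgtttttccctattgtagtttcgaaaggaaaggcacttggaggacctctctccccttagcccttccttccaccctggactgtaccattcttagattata
Gstm1, 1 of 2 windows, chr3:108017974-108018223, minus strand: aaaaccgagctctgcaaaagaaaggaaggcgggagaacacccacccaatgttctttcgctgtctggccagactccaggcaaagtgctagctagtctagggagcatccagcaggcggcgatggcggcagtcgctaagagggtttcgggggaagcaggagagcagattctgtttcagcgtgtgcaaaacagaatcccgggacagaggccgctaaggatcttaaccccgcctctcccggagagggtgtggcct
A match is only a match of letters, and its absence says nothing of elements elsewhere.

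The second question was how constructs exposed to an irradiated neighbour compare with normal ones. Gstm1, Selenop and Prdx2 lay above normal in all 3 cocultured libraries, and Taldo1 below. No gene of the 38 was called in edgeR, as none of all 11980 genes was (0%), nor by limma voom; DESeq2 called 84 genes (0.734%), none from this set. Before adjustment 4 of the 38 lay under 0.05, beside 4.11% of all genes; 3 were higher and 1 lower, beside 0.851% and 3.26%. With library totals 5 were higher and 0 lower, beside 5.17% of all genes under 0.05, as Gpx8 and Txn1 joined and Taldo1 left. DESeq2 gave 3 higher and 0 lower, beside 5.58% of all genes. In 6 genes the groups did not overlap, beside 13.2% of all genes, with 4 above and 2 below, beside 5.66% and 7.51%. The 4 genes met both marks, as 2.83% of all genes did. The median log2 fold change over the 38 was 0.07, with 23 positive, beside -0.07 over all genes, 46.9% of them positive. Irradiated and cocultured constructs are set against the same 3 normal libraries, so these values and those above are not independent of each other.

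Gstm1 averaged 129 ± 17.4 CPM in cocultured against 54.6 ± 21.2 CPM in normal constructs (SD, n = 3 each), which came to 1.24 on the log2 scale (SE 0.38). Selenop averaged 63.4 ± 27.1 against 27.6 ± 9.83 CPM, a log2 fold change of 1.20 (SE 0.48). The lowest cocultured Selenop value, 36.3 CPM, lay just above the highest normal one, 35.7 CPM. Prdx2 averaged 198 ± 35.5 against 114 ± 17.2 CPM, a log2 fold change of 0.80 (SE 0.32). Taldo1 averaged 51.5 ± 19.4 against 132 ± 27.7 CPM, a log2 fold change of -1.36 (SE 0.63). Each of these 4 had an adjusted p of 1 in edgeR's quasi-likelihood test, and none was called in any of 21 alternatives. Without cocultured 2, only Gstm1 stayed under 0.05 before adjustment, beside 1.16% of all genes. The same held without normal 1, beside 3.34%. Txn1 also lay above normal (268 to 426 against 144 to 255 CPM) and Prdx1 below (218 to 295 against 301 to 427 CPM), neither under 0.05 before adjustment.

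Fth1 came to a log2 fold change of 0.25 (SE 0.30) for cocultured over normal, Keap1 to 0.23 (SE 0.39) and Sod2 to 0.32 (SE 0.42). Gclc, whose cocultured libraries averaged 49.5 ± 20.1 against 24.7 ± 4.74 CPM in normal (SD, n = 3 each), came to 0.999 with an SE of 1.38. Nfe2l2 stood at 0.03 (SE 0.30), Gpx1 at 0.06 (SE 0.32), Gpx3 at 0.06 (SE 0.32), Gpx4 at 0.07 (SE 0.93), Txnrd1 at -0.04 (SE 0.39) and Hmox1 at -0.07 (SE 1.30). The signs of these last 6 turned when 1 library or another was left out, and Txnrd1 and Hmox1 also turned, to 0.56 and 0.58, when scaled by library totals. Nqo1 came to -0.54 (SE 1.59) and Selenow to -0.79 (SE 0.59), which library totals turned to 0.07 and 0.01; Selenow was 0.21 without normal 3. All these panel genes had an adjusted p of 1 in edgeR.

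The third comparison set irradiated against cocultured constructs. Its means hold no normal library, but its log2 fold changes are the differences between those of the comparisons above, from the same fit. It is therefore not independent of them. None of the 38 was called in edgeR, where 4 of all genes were (0.0334%); DESeq2 called Fth1 and Sod3, beside 4.13% of its genes, and limma voom called Fth1, beside 0.876%. Before adjustment 5 lay under 0.05, beside 9.58% of all genes, 1 higher and 4 lower, beside 2.25% and 7.33%. That split turned with the scaling and the tool. RLE factors in edgeR gave 3 higher and 2 lower, beside 9.52% of all genes under 0.05. Upper-quartile factors gave 3 and 3 beside 9.44%, library totals 1 and 1 beside 9.87%, and DESeq2 itself 4 and 2 beside 12.2%. Selenop stayed higher and Sod3 lower in all of these. In 8 genes the groups did not overlap, beside 14.5%: Fth1, Gsta4, Gstm1 and Selenop above, beside 3.9%, and Gclc, Gsto1, Sod3 and Txnrd1 below, beside 10.6%. Selenop, Gsto1 and Sod3 met both marks, as 5.77% of all genes did. Sod3 averaged 169 ± 4.32 against 541 ± 217 CPM (SD, n = 3 each), which came to -1.68 on the log2 scale (SE 0.40, adjusted p of 0.255 in edgeR and 0.00411 in DESeq2, and at most 0.694 over the alternatives). Selenop averaged 179.8 ± 38.2 against 63.4 ± 27.1 CPM, a log2 fold change of 1.50 (SE 0.48, adjusted p of 0.493 in edgeR). Gsto1 averaged 41.9 ± 19.2 against 98.4 ± 27.0 CPM, a log2 fold change of -1.23 (SE 0.50, adjusted p of 0.493 in edgeR). Over the 38 genes the median was 0.12, with 21 positive, beside -0.10 over all genes, 46.7% of them positive.

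**Figure D3:**
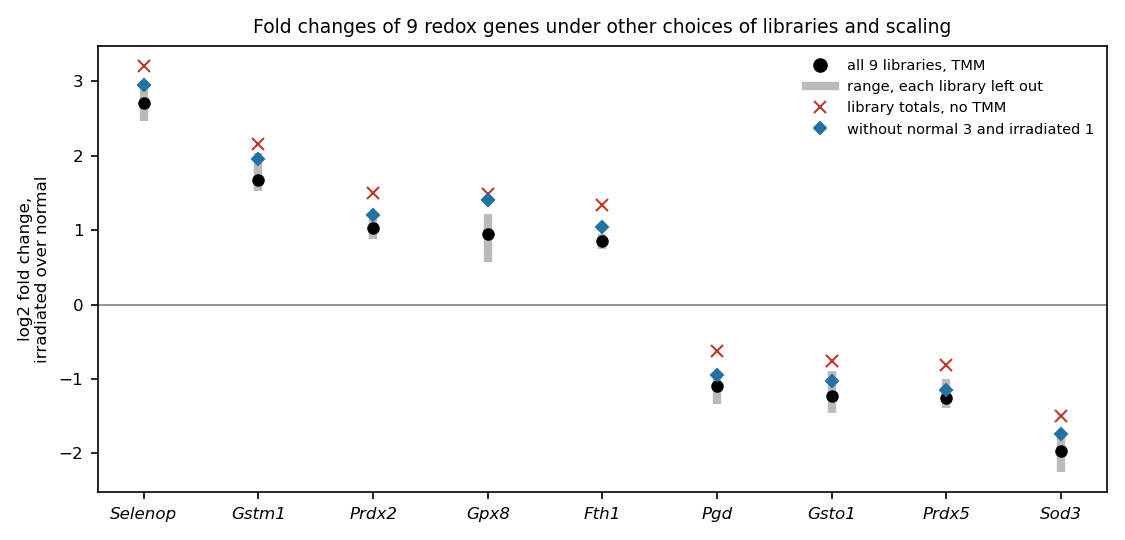
Log2 fold change of irradiated over normal for 9 genes: the value with all 9 libraries (dot), the span when each library is left out (grey bar), with library totals as the scale (cross) and without normal 3 and irradiated 1 (diamond). Each gene keeps to 1 side of 0. Leaving out libraries could hardly change that, since these genes were picked for groups without overlap. The grey bar runs from 2.47 to 2.94 for Selenop and from -2.25 to -1.76 for Sod3.

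Not every spread in the set followed the groups. Normal 3 and irradiated 1, from different groups, both lay above the other 7 libraries in Nqo1, Sod1 and Selenow, 3 of 38 genes (7.89%) beside 8.01% of all genes. Both lay below the other 7 in Srxn1, Gsr, Txn1, Gpx3 and Ftl1, 5 of 38 (13.2%) beside 3.26%. These are the libraries rich in mature muscle and mitochondrial transcripts, and the part of that difference in these values was not tested. Of the 33 genes with a read in every library, the highest library was under 2 times the lowest in 4 (Nfe2l2, Gpx1, Gpx3 and Prdx1), under 3 times in 14, from 3 to 10 times in 13 and over 10 times in 6. The genes averaging at least 100 CPM in normal constructs numbered 17, and 6 genes had a library at 0 and reads elsewhere.

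**Figure D4:**
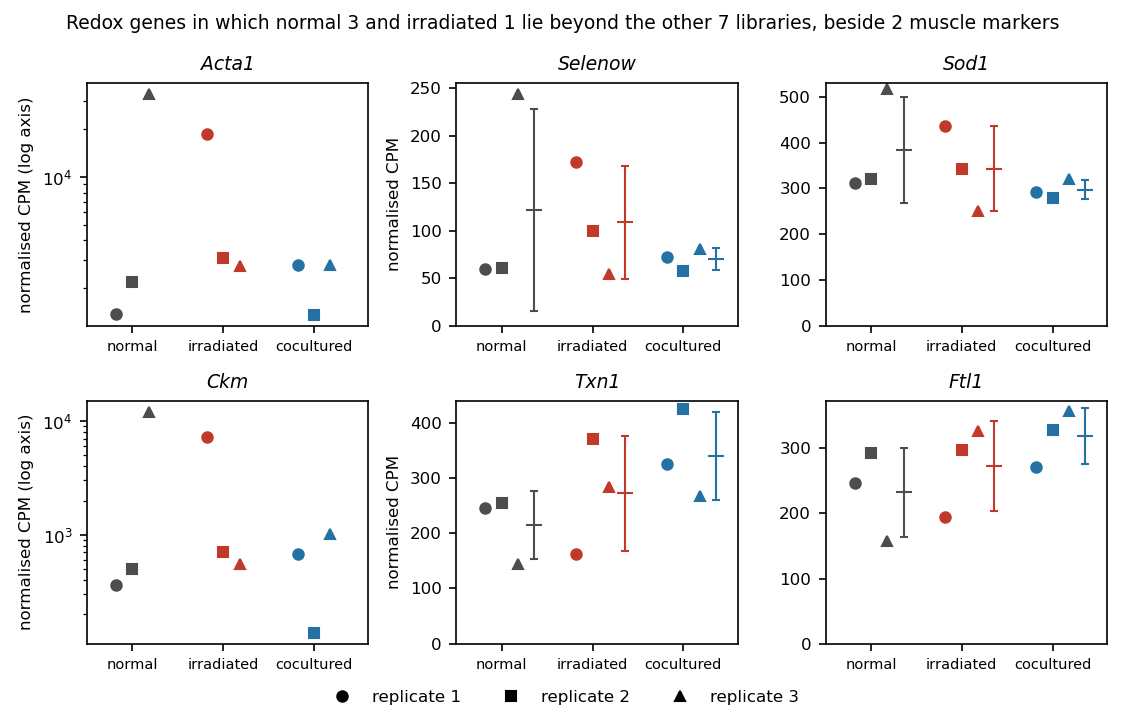
Normalised CPM in each of the 9 libraries for the muscle markers Acta1 and Ckm (log axes) and for Selenow, Sod1, Txn1 and Ftl1 (linear axes with the group mean ± SD). Normal 3 and irradiated 1 lie above the other 7 libraries in Acta1, at 33319 and 18614 CPM, and in Selenow and Sod1, and below them in Txn1 and Ftl1.

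A further 123 redox, selenium and iron genes, listed in 10 roles by function and chosen with earlier results of these data known, gave context. Of them 89 were tested and none was called in edgeR in any of the 3 comparisons; before adjustment 10 lay under 0.05 in irradiated against normal (4 higher and 6 lower), 4 in cocultured against normal (3 higher and 1 lower) and 6 in irradiated against cocultured (2 higher and 4 lower), where 10.3%, 4.11% and 9.58% of all genes did. DESeq2 called 3, 0 and 1 of them, beside 3.89%, 0.734% and 4.13% of the genes it tested, and limma voom 0, 0 and 2, beside 0.209%, 0% and 0.876%. For DESeq2 these were Dio2, Mgst3 and Steap3 and then Mt2, and for limma voom Mt1 and Mt2. Their median log2 fold changes were 0.03, -0.01 and -0.09.

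Dio2, a selenoprotein that activates thyroid hormone, stood at 284, 74.1 and 214 CPM in normal, 36.8, 3.95 and 12.8 CPM in irradiated and 22.1, 73.4 and 186 CPM in cocultured libraries. Irradiated libraries lay below normal ones, with a log2 fold change of -3.43 (SE 0.90, adjusted p of 0.227 in edgeR). DESeq2 called Dio2 here, as did edgeR with no filter on low counts and edgeR without irradiated 1. Steap3, which reduces iron in endosomes, stood at 9.65, 39.99 and 31.2 CPM in normal, 159, 105 and 107 CPM in irradiated and 75.7, 89.7 and 40.7 CPM in cocultured libraries. It lay in the same order as Selenop and Gstm1, irradiated above cocultured above normal. The log2 fold change was 2.20 (SE 0.59, adjusted p of 0.259 in edgeR) for irradiated and 1.35 (SE 0.58, adjusted p of 1 in edgeR) for cocultured over normal. DESeq2 called Steap3 for irradiated over normal. Ephx1, an epoxide hydrolase and NRF2 target, averaged 169 ± 54.1 in irradiated against 74.8 ± 30.7 CPM in normal constructs (SD, n = 3 each), which came to 1.18 on the log2 scale (SE 0.41, adjusted p of 0.483 in edgeR).

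The metallothioneins Mt1 and Mt2, which bind zinc and copper and scavenge oxidants, lay above normal in all cocultured libraries. Mt2 stood at 3666, 6253 and 2591 CPM in normal, 1885, 3695 and 4294 CPM in irradiated and 8145, 8308 and 8621 CPM in cocultured libraries. The cocultured libraries lay above all 6 others. Its log2 fold change was 1.003 (SE 0.44, adjusted p of 1 in edgeR) for cocultured over normal and -1.34 (SE 0.44, adjusted p of 0.493 in edgeR) for irradiated over cocultured, which DESeq2 and limma voom called. Nfe2l1, a relative of NRF2 that binds the same elements, averaged 182 ± 27.7 in cocultured against 298 ± 22.6 CPM in normal constructs (SD, n = 3 each), which came to -0.71 on the log2 scale (SE 0.29, adjusted p of 1 in edgeR).

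**Figure D5:**
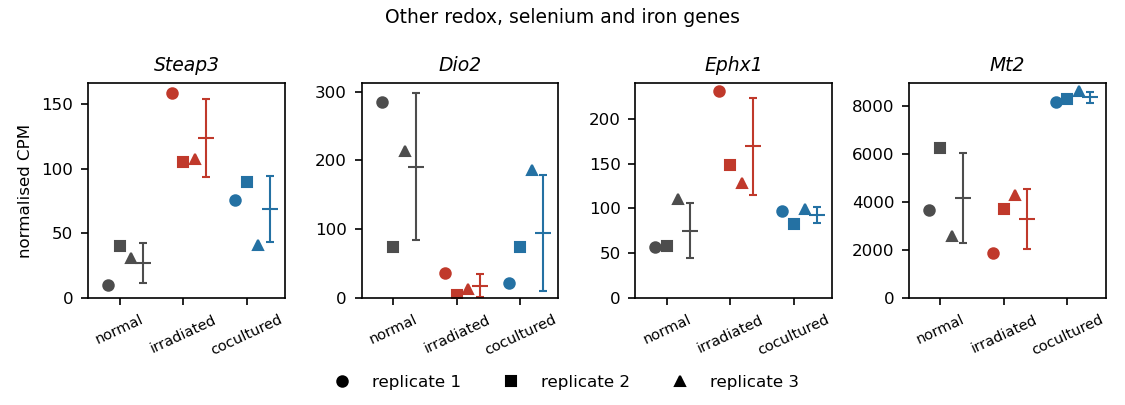
Normalised CPM in each of the 9 libraries for Steap3, Dio2, Ephx1 and Mt2, with the group's mean ± SD at the side. Mt2 is highest in the 3 cocultured libraries, at 8145 to 8621 CPM, and irradiated Dio2 lies between 3.95 and 36.8 CPM, below normal.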

How the data were processed

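Total RNA (100 ng a library) from 9 constructs was sequenced with a 3′-end kit as single-end reads of 75 bp, per the labels' protocols. Each library was deposited by the authors as 1 list of whole counts by gene symbol; FastQC, STAR, HTSeq and the builds GRCm39 and mm39 are named in the submitters' processing notes, with no versions or strand setting. Molecular identifiers are not mentioned. Samples were grouped by the labels' titles, and no per-sample column was left unused (0). Column headers inside the files carry another number than the labels, so each file's sample was taken from the deposit's record.

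All genes were fitted together with edgeR 4.0.16 (filterByExpr, TMM factors, quasi-likelihood test, group as the term, 9 libraries), giving 11980 tested genes with Benjamini-Hochberg adjustment over all of them and a threshold of 0.05; the common biological coefficient of variation was 1.32. DESeq2 1.42.0 and limma voom 3.58.1 (R 4.3.3), other scaling and filters, a replicate block and leaving out libraries were alternatives, 21 in all for each result. No pairing by replicate number was seen, although 3 libraries a group cannot exclude it. Deviations of same-numbered libraries from their group means correlated from -0.08 to 0.05 in 9 pairs. Those of other numbers correlated from -0.08 to 0.11 in 18. Replicates of a group differed by far more than independent counting of reads would give (chi-square per gene 35.4 to 297). Reads include PCR copies, so the noise from sampling molecules was not measured.

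The 40 genes, the 123 further genes and the marker lists were chosen with earlier results of these data known. Fold changes are given for genes called, for those with an unadjusted p under 0.05 and no overlap between groups (at most 12 against normal, 6 in irradiated against cocultured and 3 of the further genes a comparison), and for a fixed panel: Nfe2l2, Keap1, Hmox1, Nqo1, Gclc, Txnrd1, Gpx1, Gpx3, Gpx4, Sod2, Selenop, Selenow and Fth1. The other genes are given by their values, and Gsta4, Txn1 and Prdx1 were named for lack of overlap after their values were seen.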

Additional observations from a re-analysis of the deposited data

How the results depend on the processing

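The log2 fold changes of the 9 genes set apart in irradiated against normal, of Gstm1, Selenop, Prdx2 and Taldo1 in cocultured against normal, and of Sod3, Selenop and Gsto1 in irradiated against cocultured kept their direction in all 21 alternatives. These genes were picked for groups without overlap, so leaving out libraries could hardly turn their direction. How many genes passed the threshold did not hold as well, and the cause was not tested. For irradiated against normal, cocultured against normal and irradiated against cocultured in turn, DESeq2 called 445, 84 and 473 of all genes, edgeR without a filter on low counts 130, 52 and 153, edgeR without both irradiated 2 and irradiated 3 (chosen after seeing the data, with the lone irradiated library assumed to vary like the other groups) 190, 96 and 449, and edgeR without both normal 3 and irradiated 1 20, 1 and 21. For irradiated against normal and irradiated against cocultured, limma voom called 25 and 105 genes and a fit of the 6 libraries of a comparison 0 and 0; library totals gave 9 in irradiated against cocultured. With the replicate block, whose numbers are not known to pair the libraries, the calls were 23 and 12. Selenop became the 1 called gene of the set, in irradiated against normal. Leaving out 1 library gave 6 to 147 genes in irradiated against normal and 1 to 97 in irradiated against cocultured, the highest of both without irradiated 1.

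Of the 38 genes, DESeq2 called 5 in irradiated against normal and 2 in irradiated against cocultured, limma voom 1 and 1, no filter 2 and 1, and leaving out 1 library 0 to 1 in irradiated against normal. Of the further genes, DESeq2 called 3 and 1, no filter 2 and 2, the fit without irradiated 2 and irradiated 3 gave 3 and 2, limma voom 2 in irradiated against cocultured, and leaving out 1 library 0 to 1 (Dio2 without irradiated 1) in irradiated against normal. The median log2 fold change over the set moved with library totals to 0.43 in irradiated and 0.58 in cocultured against normal, without normal 3 and irradiated 1 to 0.22 in irradiated against normal, without irradiated 2 and irradiated 3 to -0.19 in irradiated against cocultured, and lay between -0.105 and 0.23 in irradiated against normal when 1 library was left out.

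Panel genes with small values changed sign. In irradiated against normal, library totals gave Hmox1 0.50, Sod2 0.16 and Selenow 0.36; limma voom gave Hmox1 0.0911 and Selenow 0.0112; the replicate block gave Selenow 0.0522; without normal 3 and irradiated 1, Hmox1 was 0.54, Gpx3 -0.0642 and Selenow 0.36; without irradiated 2 and irradiated 3, Nqo1 was 0.87, Gclc 0.20, Gpx3 -0.12, Gpx4 0.10 and Selenow 0.50. Leaving out 1 library took Hmox1 from -0.39 to 0.24, Gpx3 from -0.16 to 0.21, Gpx4 from -0.57 to 0.11 and Selenow from -0.65 to 0.84. In cocultured against normal, library totals gave Hmox1 0.58, Nqo1 0.0660, Txnrd1 0.56 and Selenow 0.00951; without normal 3 and irradiated 1, Hmox1 was 0.27, Txnrd1 0.12, Gpx3 -0.17, Gpx4 -0.19 and Selenow 0.21. Leaving out 1 library took Nfe2l2 from -0.033 to 0.14, Hmox1 from -0.47 to 0.28, Txnrd1 from -0.15 to 0.12, Gpx1 from -0.23 to 0.22, Gpx3 from -0.17 to 0.20, Gpx4 from -0.19 to 0.50 and Selenow from -1.11 to 0.21. With 3 libraries a group and a wide spread, the low genes Hmox1, Nqo1, Gclc and Gpx4 had standard errors of 0.93 to 1.59 on the log2 scale for irradiated over normal.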
